A study of Homo sapiens with 10 samples.

Results

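Among the genes measured in PC-3 spheroids treated with topotecan, 10 were described here because their messenger RNAs are giant: AHNAK, AHNAK2, PLEC, DYNC1H1, MDN1, KMT2D, PRKDC, HUWE1, BIRC6 and HERC1. They are 10 of the 18144 genes listed, taken by symbol, and they were selected on the day-7 CPM, because AHNAK2 was much lower with drug than without it. The canonical transcript exceeds 10 kb in all 10, the shortest being that of PRKDC at 13.5 kb, and the loci were picked to differ widely in span. Their day-7 ratios to untreated spheroids are therefore given as a description, with no test.

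PC-3 is a human cell line derived from a prostate cancer metastasis, grown here as 3D spheroids. The groups were untreated spheroids on days 0, 3 and 7, spheroids given conventional topotecan as a bolus (CONV-TOPO) on days 3 and 7, and spheroids under extended exposure, in which topotecan was added in daily fractions (EE-TOPO), on days 3 and 7. Each group had 1 library of bulk RNA, so that a single cell line without replicates stands behind every value, and both regimens of a day share 1 untreated library. Samples of day 1 were not analysed here. The library is given as day 7 in the labels, while the study's text places the later time point weeks after the start, and the labels were followed.

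Topotecan traps topoisomerase I on DNA, which leaves breaks when a replication fork or an RNA polymerase meets the trapped enzyme, and long genes take longer to transcribe than short ones. A giant mRNA is not the same as a long gene: an mRNA of many kilobases can come from a compact locus with few introns or from a locus that is mostly intron. The proteins of these 10 genes are among the largest in the cell and serve as scaffolds, motors, remodelling ATPases, chromatin enzymes, repair kinases and ubiquitin ligases.

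Libraries held an estimated 15.0 to 22.5 M reads (M, 1000000). Levels are in counts per 1000000 reads (CPM), and ratios are of CPM as deposited. A call is a ratio of at least 2-fold among genes whose mean over both libraries compared reached 10 CPM. All 10 genes passed this limit in every comparison, with 12.3 CPM as their lowest value in any library. The 95% intervals are exact binomial intervals of the estimated reads, cover counting error only and compare libraries, not conditions. In bulk RNA, fewer cells of a kind and less RNA per cell cannot be told apart. The markers fixed for PC-3, which are the epithelial KRT8, KRT18 and EPCAM with CD44 and the mesenchymal VIM, were all at 10 CPM or more (5 of 5) and summed to 2533 to 2803 CPM in untreated libraries, 2666 to 2685 CPM on day 3 with drug and 3411 to 3512 CPM on day 7 with drug. On day 7 KRT8, KRT18 and VIM were higher with both regimens (KRT8 at log2 0.82 and 0.91), whereas EPCAM (-0.26 and -0.30) and CD44 (-0.50 and -0.63) were lower. The fibroblast list was at 58.5 to 92.1 CPM untreated, 70.2 to 87.0 CPM on day 3 and 53.4 to 56.2 CPM on day 7 with drug, most of it COL1A1 and then COL3A1, which was at 11.7 and 16.0 CPM on day 3 with drug, with DCN listed at 0 in 5 of 7 libraries. Endothelial and blood markers summed to 92.2 to 127 CPM untreated, 114 to 142 CPM on day 3 and 145 to 148 CPM on day 7 with drug. That sum lay almost wholly in CD68 and PECAM1, whereas VWF and PTPRC were at or under 0.489 CPM throughout. None of 13 mitochondrial mRNAs was listed.

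AHNAK and AHNAK2 are the most unusual of these genes in build. AHNAK (ENSG00000124942.14; chromosome 11, 62433544 to 62546807, minus strand, hg38) has a transcript of 18761 bases of which 96.9% is a single, mostly coding exon of 18173 bases, although the locus spans 113 kb. AHNAK2 (ENSG00000185567.7; chromosome 14, 104937253 to 104978375, minus strand) packs a transcript of 18335 bases into 41.1 kb, with 95.7% of it in a mostly coding exon of 17547 bases. Both exons are built of tandem units, and 4 neighbouring units of each, cut to their 90 most alike bases, are shown to make the repeat visible; the rest of the exon is less alike. Capitals mark the bases that are the same in all 4 units (hg38, minus strand, printed in transcript sense).
AHNAK unit 1, chr11:62526022-62526111: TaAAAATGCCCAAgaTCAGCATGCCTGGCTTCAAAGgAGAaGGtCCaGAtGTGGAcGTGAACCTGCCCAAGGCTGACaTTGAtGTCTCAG
AHNAK unit 2, chr11:62525638-62525727: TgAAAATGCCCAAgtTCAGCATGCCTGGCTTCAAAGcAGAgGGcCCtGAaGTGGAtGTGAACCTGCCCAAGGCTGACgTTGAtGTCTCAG
AHNAK unit 3, chr11:62525254-62525343: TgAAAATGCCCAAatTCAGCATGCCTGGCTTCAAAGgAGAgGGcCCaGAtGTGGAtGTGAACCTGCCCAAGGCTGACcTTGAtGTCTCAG
AHNAK unit 4, chr11:62524870-62524959: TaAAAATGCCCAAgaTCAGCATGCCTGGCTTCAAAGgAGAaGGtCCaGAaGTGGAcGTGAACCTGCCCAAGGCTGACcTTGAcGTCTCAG
AHNAK2 unit 1, chr14:104947255-104947344: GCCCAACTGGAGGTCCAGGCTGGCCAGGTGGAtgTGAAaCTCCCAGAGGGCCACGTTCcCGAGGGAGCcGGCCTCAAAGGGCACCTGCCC
AHNAK2 unit 2, chr14:104946760-104946849: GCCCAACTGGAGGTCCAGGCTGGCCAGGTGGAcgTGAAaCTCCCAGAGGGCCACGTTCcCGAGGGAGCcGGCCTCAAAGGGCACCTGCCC
AHNAK2 unit 3, chr14:104946265-104946354: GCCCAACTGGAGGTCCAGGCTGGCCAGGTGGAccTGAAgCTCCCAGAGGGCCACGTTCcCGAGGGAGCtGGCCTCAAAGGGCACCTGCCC
AHNAK2 unit 4, chr14:104945770-104945859: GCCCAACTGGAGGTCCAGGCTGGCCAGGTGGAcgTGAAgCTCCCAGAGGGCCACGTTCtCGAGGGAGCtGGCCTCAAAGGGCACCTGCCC
The AHNAK units repeat every 384 bases. At that offset 51.8% of the exon's bases equal the base one unit further on, against a median of 24.9% at other offsets, and 79 of the 90 bases shown were the same in all 4 units. The AHNAK2 units repeat every 495 bases with 68.1% of bases equal, against 25.4%, and 85 of the 90 bases were shared. Despite this likeness, no window of 150 bases of the AHNAK2 transcript and 6 windows of AHNAK (0.0322%) occurred a second time, so that nearly every stretch of that length is unique. In AHNAK2, 509 bases (2.78%) overlap PLD4 on the other strand, and whether reads were counted by strand is not given in the sources used here.

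AHNAK encodes a giant scaffold under the plasma membrane that binds annexin A2 and S100A10. Untreated spheroids had 887 CPM (day 0), 622 CPM (day 3) and 1029 CPM (day 7) of AHNAK mRNA. CONV-TOPO spheroids had 829 CPM (day 3) and 418 CPM (day 7), and EE-TOPO spheroids had 1124 CPM (day 3) and 327 CPM (day 7). The untreated libraries themselves thus spanned a range from 622 to 1029 CPM, and both day-7 libraries with drug lay below it. Relative to same-day untreated spheroids, AHNAK on day 7 was 0.406-fold with CONV-TOPO (95% interval 0.395 to 0.417) and 0.317-fold with EE-TOPO (0.307 to 0.327). On day 3 it was 1.33-fold (1.30 to 1.37) and 1.81-fold (1.77 to 1.85).

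AHNAK2, a paralogue of AHNAK whose function is less well known, was steadier without drug, with 240.3 CPM (day 0), 236 CPM (day 3) and 307 CPM (day 7). CONV-TOPO spheroids had 306 CPM of AHNAK2 on day 3 but 111 CPM of it on day 7. EE-TOPO spheroids had 328 CPM and 88.2 CPM on these days. The day-3 libraries with drug were near the untreated day-7 library, and the day-7 libraries with drug stood apart from the other 5. The day-7 ratio was 0.361-fold with CONV-TOPO (0.343 to 0.381) and 0.288-fold with EE-TOPO (0.271 to 0.305), after 1.30-fold (1.25 to 1.35) and 1.39-fold (1.34 to 1.44) on day 3.

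PLEC (ENSG00000178209.17; chromosome 8, 143915153 to 143976746, minus strand) encodes plectin, a cytolinker that ties intermediate filaments to hemidesmosomes and to actin. Its transcript of 14804 bases has 32 exons, the largest of which holds 48.9% of it. Without drug, days 0, 3 and 7 had 3538, 2924 and 3907 CPM. Under CONV-TOPO the level was 3669 CPM (day 3) and 2256 CPM (day 7), and under EE-TOPO 3579 CPM and 2069.6 CPM. PLEC was by far the most abundant of the 10 per length, at 264 CPM per kb in the untreated day-7 library against 54.9 CPM per kb for AHNAK, the next one. It was also the only one that stayed short of 2-fold on day 7, at 0.577-fold with CONV-TOPO (0.570 to 0.585) and 0.530-fold with EE-TOPO (0.523 to 0.537).

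DYNC1H1 (ENSG00000197102.14; chromosome 14, 101964573 to 102056444, plus strand) encodes the heavy chain of cytoplasmic dynein, the motor that carries cargo toward microtubule minus ends. Its untreated levels of days 0, 3 and 7 were 684, 503 and 675 CPM. Under CONV-TOPO the levels of days 3 and 7 were 592 and 299 CPM, and under EE-TOPO they were 679 and 201 CPM. Only the day-7 libraries with drug were below the untreated range, at 0.443-fold (0.429 to 0.458) and 0.297-fold (0.286 to 0.310) of the same-day level. In this gene 732 bases (3.67%) overlap a pseudogene on the other strand. MDN1 (ENSG00000112159.13; chromosome 6, 89642498 to 89819795, minus strand) encodes midasin, an AAA ATPase that strips assembly factors from precursors of the large ribosomal subunit, from 102 exons. It was the lowest of the 10 in CPM per kb on untreated day 7, at 2.23, next to HERC1 at 2.37. In the same order of days, its levels were 39.4, 33.0 and 41.3 CPM untreated, 37.0 and 17.1 CPM under CONV-TOPO and 44.9 and 12.3 CPM under EE-TOPO. The day-7 ratios were 0.415-fold (0.361 to 0.477) and 0.298-fold (0.253 to 0.351), and on day 3 with CONV-TOPO the interval of 0.997 to 1.26 held 1-fold, so that a difference was not detectable at this depth.

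KMT2D (ENSG00000167548.18; chromosome 12, 49018978 to 49060795, minus strand) encodes a histone H3 lysine 4 methyltransferase that works at enhancers. It has the longest transcript of the 10, with 20635 bases in 55 exons, and a span of only 41.8 kb. KMT2D had 107, 102 and 155 CPM untreated, 146 CPM (day 3) and 49.2 CPM (day 7) under CONV-TOPO, and 208 and 42.4 CPM under EE-TOPO. It had the widest swing of the 10. On day 3 it was 1.44-fold with CONV-TOPO (1.35 to 1.53) and 2.04-fold with EE-TOPO (1.93 to 2.15), and on day 7 it was 0.317-fold (0.293 to 0.343) and 0.273-fold (0.250 to 0.297). In KMT2D 2.40% of 150-base windows also occur in an overlapping gene on the same strand. PRKDC (ENSG00000253729.9; chromosome 8, 47773113 to 47960137, minus strand) encodes the catalytic subunit of DNA-PK, the kinase that is recruited to double-strand breaks by the Ku dimer. It had 264, 202 and 249.7 CPM untreated, 187 and 100.04 CPM under CONV-TOPO and 239 and 82.2 CPM under EE-TOPO. PRKDC was the only one of the 10 that was below untreated on day 3 with CONV-TOPO, at 0.926-fold (0.882 to 0.973). Its day-7 ratios of 0.401-fold (0.379 to 0.424) and 0.329-fold (0.309 to 0.351) lay among those of the other giant mRNAs.

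HUWE1 (ENSG00000086758.17; chromosome X, 53532096 to 53686720, minus strand) and HERC1 (ENSG00000103657.14; chromosome 15, 63608618 to 63833949, minus strand) encode HECT-type ubiquitin ligases. BIRC6 (ENSG00000115760.16; chromosome 2, 32357028 to 32618899, plus strand) encodes an inhibitor of apoptosis that joins ubiquitin to its targets by its own conjugating domain. HUWE1 had 297, 264 and 340.0 CPM untreated, 297 and 152 CPM under CONV-TOPO and 365 and 133 CPM under EE-TOPO. BIRC6 had 65.1, 54.9 and 81.7 CPM untreated, 85.6 and 32.0 CPM under CONV-TOPO and 102 and 22.3 CPM under EE-TOPO. HERC1 had 30.4, 24.5 and 36.0 CPM untreated, 32.5 and 14.5 CPM under CONV-TOPO and 45.7 and 14.4 CPM under EE-TOPO. In all 3 ligases the EE-TOPO library was the highest of the 7 on day 3 and the lowest on day 7, although the 2 day-7 levels of HERC1 with drug were within counting error of each other (0.994-fold of one another, 0.823 to 1.20). The day-7 ratio with EE-TOPO was 0.390-fold for HUWE1 (0.371 to 0.410), 0.273-fold for BIRC6 (0.242 to 0.308) and 0.400-fold for HERC1 (0.342 to 0.467). BIRC6 has the longest span of the 10 at 262 kb and HERC1 follows at 225 kb.

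**Figure D1:**
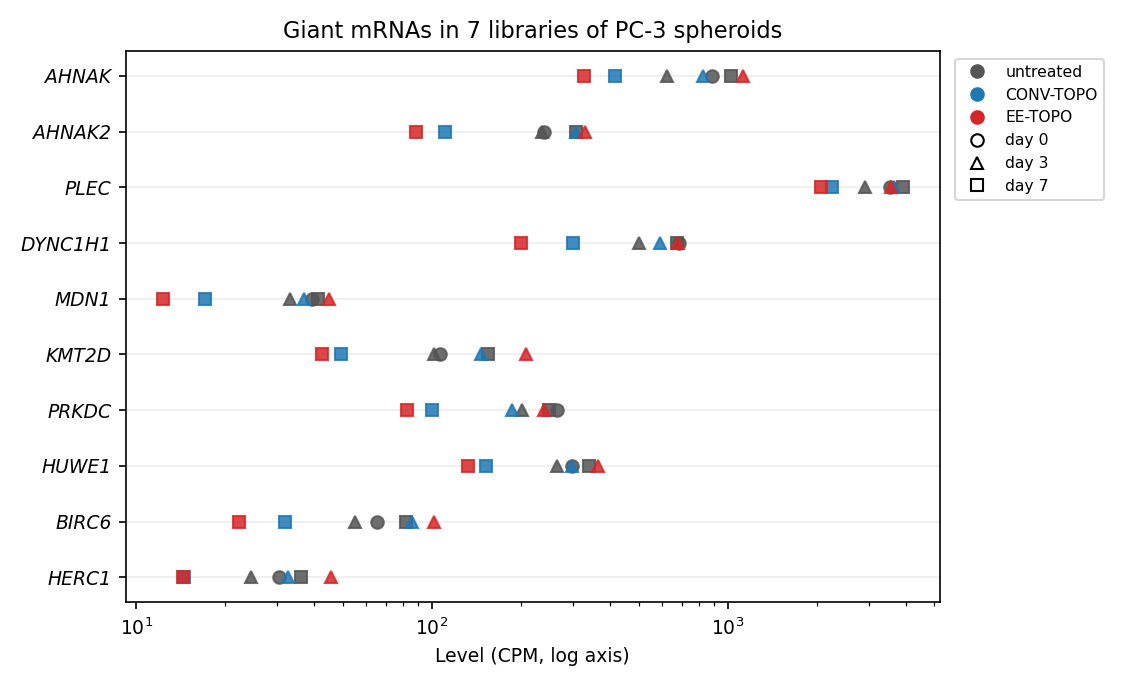
Level of each giant mRNA (CPM, log axis) in each of the 7 libraries, with colour for treatment and symbol shape for day. For all 10 genes the squares of CONV-TOPO and EE-TOPO on day 7 lie to the left of the other 5 symbols, for example AHNAK2 at 111 and 88.2 CPM against 236 to 328 CPM.

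On day 3 the giant mRNAs were above the same-day untreated library, with a median log2 ratio of 0.35 with CONV-TOPO (9 of 10 higher) and 0.47 with EE-TOPO (10 of 10 higher), while the median of all genes was 0.01 in both. None of the 10 was called with CONV-TOPO in either direction, where 0.454% of all genes were at least 2-fold higher and 0.237% at least 2-fold lower. KMT2D was the only call with EE-TOPO, where 1.46% of genes were at least 2-fold higher and 0.403% at least 2-fold lower. The untreated day-3 library, which both ratios share, was itself low for these genes. All 10 were below untreated day 0 there, by a median log2 ratio of -0.27 and a range from -0.51 (AHNAK) to -0.03 (AHNAK2), against a median of 0.05 over all genes, and none was called (0.161% of genes at least 2-fold lower, 1.81% higher). Against untreated day 0, the median of the giant mRNAs on day 3 was 0.03 with CONV-TOPO (6 of 10 higher) and 0.32 with EE-TOPO (8 of 10 higher). AHNAK, DYNC1H1, MDN1 and PRKDC were then below the baseline with CONV-TOPO, as were DYNC1H1 and PRKDC with EE-TOPO. Direction on day 3 thus depended on the baseline for several of these genes, and the call for KMT2D was lost with untreated day 0, with the mean of the untreated libraries or with another scaling of the libraries.

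On day 7 all 10 were below untreated with both regimens. The median log2 ratio was -1.31 with CONV-TOPO and -1.70 with EE-TOPO, beside -0.25 and -0.23 over all genes. At least 2-fold lower were 9 of 10 with each regimen, PLEC being the exception, where 14.9% of all genes with CONV-TOPO and 15.6% with EE-TOPO were. These ratios were used to choose the genes, so nothing is read from this count. None was at least 2-fold higher (background 3.89% and 5.06%). In the untreated day-7 library the giant mRNAs were above day 0 by a median of 0.21, with 8 of 10 higher and none called (0.0705% of genes at least 2-fold lower, 1.24% higher). It was above untreated day 3 for all 10, by a median of 0.42, again with none called (0.882% of genes at least 2-fold lower, 0.723% higher). Against untreated day 0 in place of day 7, the medians of the giant mRNAs were -1.10 and -1.44. TMM scaling (a trimmed mean of log ratios between libraries) moved the median of all genes on day 7 to 0.00 with CONV-TOPO and -0.01 with EE-TOPO. Under it, the giant mRNAs had a median of -1.06 and -1.48, and 7 and 9 of them were at least 2-fold lower. Calls over all genes were mostly lower with library totals (79.3% and 75.6% of calls) and evenly split with TMM (48.5% and 50.6%). The direction of all 10 on day 7 was the same under every scaling and baseline tried, which the choice of the genes favours. The filters and pseudocounts tried cannot change the sign of a ratio, so they say nothing of direction.

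**Figure D2:**
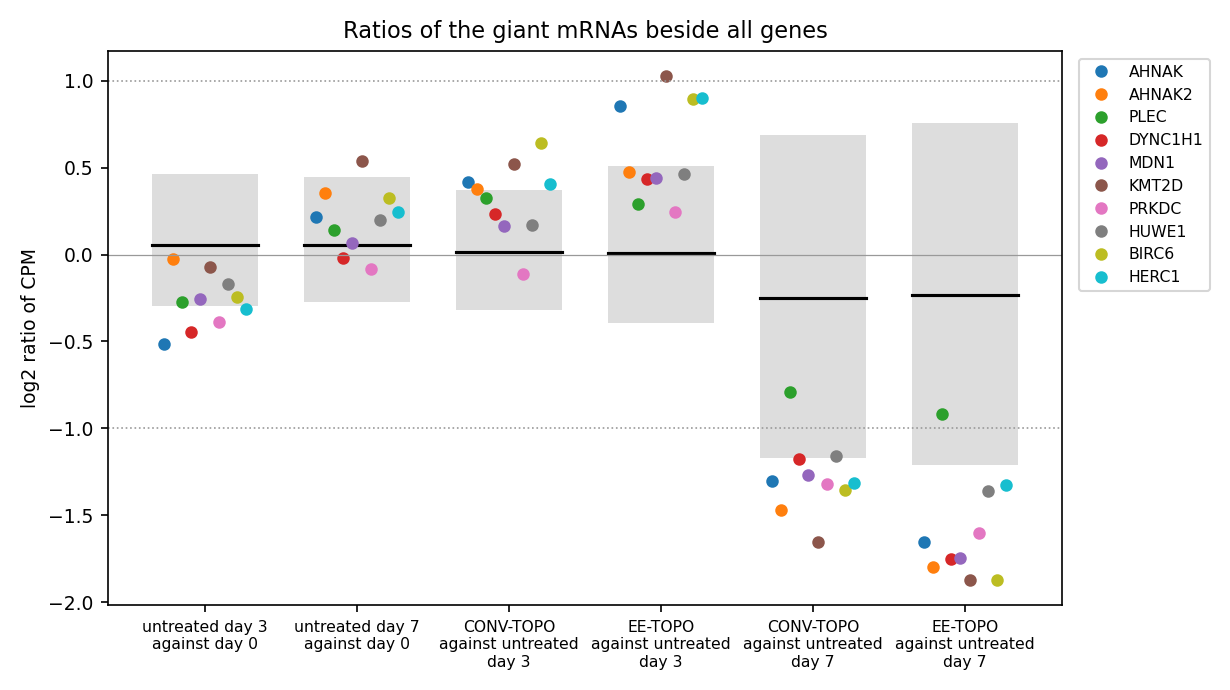
Log2 ratio of CPM for the 10 giant mRNAs (coloured points) in 6 comparisons, over the 10th to 90th percentile (grey bar) and the median (black line) of all genes tested. Dotted lines mark 2-fold. The points lie above the line of all genes on day 3 with EE-TOPO, from 0.24 to 1.03, and below the grey bar on day 7 with EE-TOPO for 9 of 10 genes. The untreated day-3 library, the baseline of the day-3 ratios, lies below day 0 for all 10.

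Together, the 10 genes took 0.615%, 0.497% and 0.682% of all reads without drug on days 0, 3 and 7. The share was 0.618% with CONV-TOPO and 0.671% with EE-TOPO on day 3, and 0.345% and 0.299% on day 7. PLEC made up more than any other, and without it the sum was 2915 CPM in the untreated day-7 library, 1193 CPM with CONV-TOPO and 922 CPM with EE-TOPO. Both day-7 libraries with drug were the lowest in the sum, as in each gene.

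The regimens were compared with each other in a fit over the 6 libraries of days 3 and 7. This contrast did not choose the genes, but its day-7 libraries are those whose ratios to untreated did. Its error is the variation of a treatment effect between the days, untreated libraries included, with 2 residual degrees of freedom. The ratios to untreated that chose the genes thus enter their error, so a missing call says little of these genes. Their SE ran from 0.38 (PLEC) to 0.58 (KMT2D), against 0.12 (AHNAK2) to 0.18 (MDN1) in a fit of the 4 treated libraries. Of 14796 genes tested, limma with Benjamini-Hochberg adjustment called none at 0.05 (0.00%), and at an unadjusted p under 0.05 there were 133 (100 higher and 33 lower with EE-TOPO). None of the giant mRNAs was among these. Their log2 fold changes of EE-TOPO over CONV-TOPO ran from -0.21 (DYNC1H1, SE 0.45) to 0.21 (HERC1, SE 0.46), and every adjusted p from limma was 1.00. With the 4 treated libraries alone limma called 71 genes, none of them a giant mRNA. The fit averages over days on which the regimens stood in opposite order. On day 3, 9 of 10 were higher with EE-TOPO than with CONV-TOPO (median 0.29, PLEC lower at -0.04). On day 7 all 10 were lower (median -0.31, from -0.57 for DYNC1H1 to -0.01 for HERC1). The median of all genes was 0.01 on both days. This order is not particular to the 10 genes. Other transcripts over 10 kb with over 9 kb of coding sequence had median ratios to untreated of 0.31 with CONV-TOPO and 0.61 with EE-TOPO on day 3. On day 7 theirs were -1.44 and -1.65. None of the 10 genes differed 2-fold between regimens in either direction, where 0.226% of genes on day 3 and 0.244% on day 7 were higher and 0.108% and 0.149% lower. DYNC1H1, BIRC6 and MDN1 stood furthest apart on day 7, with 0.672-fold (0.642 to 0.703), 0.697-fold (0.606 to 0.801) and 0.718-fold (0.593 to 0.868) of the CONV-TOPO level.

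What the 10 genes share is the length of the mRNA, and it went with the ratio over all genes. Among the other genes with a canonical transcript over 10 kb (641 listed), the median log2 ratio on day 7 was -1.07 with CONV-TOPO (424 tested) and -1.12 with EE-TOPO (422 tested), and 53.5% and 55.9% of them were at least 2-fold lower. Among transcripts of up to 1 kb the medians were 0.64 and 0.65, with 0.870% and 1.37% at least 2-fold lower. The medians went down with each step of length between these. On day 3 the order was the other way, from -0.12 and -0.29 for transcripts of up to 1 kb to 0.23 and 0.44 for those over 10 kb. Across genes, the rank correlation of the ratio with transcript length was 0.35 with CONV-TOPO and 0.54 with EE-TOPO on day 3 (9980 and 10020 genes), and -0.68 and -0.63 on day 7 (9728 and 9764 genes). These points share libraries and baseline and are not independent replicates, so no p is given. Untreated libraries differed in the same respect: the correlation was 0.49 for day 7 against day 0, so that the untreated day-7 baseline is itself high for long transcripts. The ratios on day 7 also went with GC content, at a rank correlation of 0.54 and 0.53, and with length given span and GC content at -0.51 and -0.44. The study reports that RNA had to pass an integrity threshold before libraries were made, but no measure of RNA quality per library was analysed here. The part of length, GC content or RNA quality in the result was not tested.

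**Figure D3:**
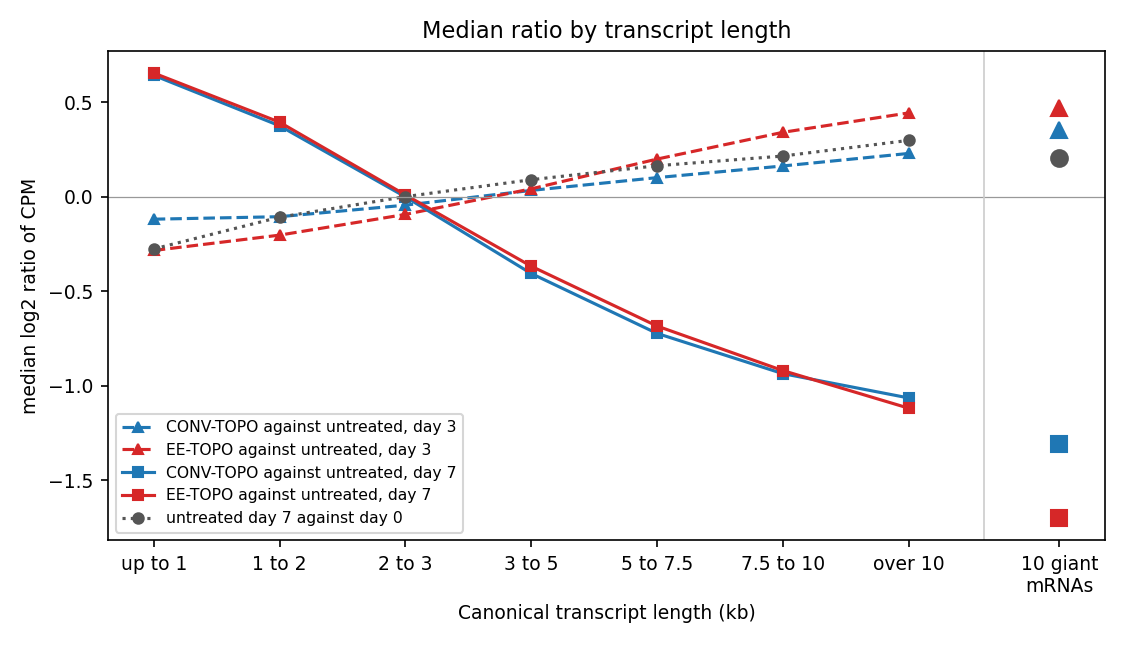
Median log2 ratio of CPM by canonical transcript length (kb, 7 classes without the 10 giant mRNAs), with the median of the 10 giant mRNAs at the right. On day 7 the lines go down from 0.64 and 0.65 in the shortest class to -1.07 and -1.12 in the longest, and the giant mRNAs lie at -1.31 and -1.70. On day 3 they go up, to 0.23 and 0.44.

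Coding length set the giant mRNAs beside a narrower class. Of the transcripts over 10 kb, those with more than 9 kb of coding sequence, as all 10 have, were at a median of -1.44 with CONV-TOPO and -1.65 with EE-TOPO on day 7 (76 and 75 other genes tested), with 78.9% and 84.0% at least 2-fold lower. Those with up to 9 kb, where much of the length is untranslated, were at -0.97 and -0.99, with 48.0% and 49.9%. The split at 9 kb was chosen after seeing the data. Among the coding class, 37 of 76 genes with CONV-TOPO and 30 of 75 with EE-TOPO were as low as AHNAK2, and 25 and 28 were as low as KMT2D. PLEC was at the upper end, with 62 of 76 and 65 of 75 as low or lower. PLEC also has the highest GC content of the 10 (66.8%). Other transcripts over 10 kb were at -0.95 and -1.09 with 55% GC or more, and at -1.13 and -1.17 with under 45%. AHNAK2 (58.5%) and KMT2D (59.8%) have over 55% GC too, but were at -1.47 and -1.80 and at -1.66 and -1.87. Within the 10, the rank correlation of the ratio with GC content was 0.20 and 0.09.

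By locus span, on day 7 the transcripts over 10 kb went from a median of -0.58 and -0.57 at spans of up to 50 kb to -1.28 and -1.43 at spans over 200 kb, whereas transcripts of up to 3 kb with spans over 200 kb were at -0.06 and -0.25. The partial rank correlation across genes was -0.51 and -0.45 for transcript length given span, and -0.26 and -0.27 for span given length. Within the 10, the compact AHNAK2 (41.1 kb) was at -1.47 and -1.80 and KMT2D (41.8 kb) at -1.66 and -1.87. BIRC6 (262 kb) was at -1.35 and -1.87. The rank correlation of the ratios with span was 0.04 with CONV-TOPO and 0.13 with EE-TOPO, while that with transcript length was -0.30 and -0.62 (10 genes, a description). These are the ratios that chose the genes, so their place among others is a description and says nothing of compact loci. Of 95 other long transcripts with spans of up to 50 kb, 8 with CONV-TOPO and 7 with EE-TOPO were as low as AHNAK2, and 7 and 6 as low as KMT2D. With more than 9 kb of coding sequence there were 8 such genes, at a median of -0.65 and -1.21. At spans of 100 to 200 kb, HUWE1 was near the middle, with 68 of 127 and 48 of 126 as low.

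**Figure D4:**
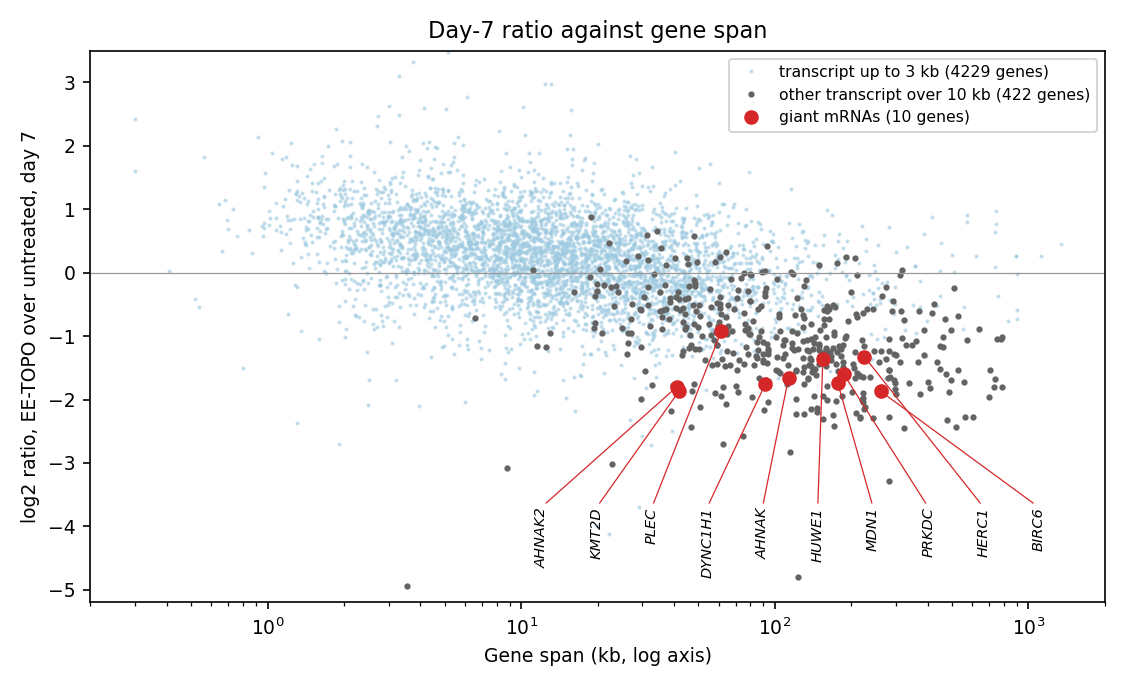
Log2 ratio of EE-TOPO to untreated on day 7 against gene span (kb, log axis) for transcripts up to 3 kb (light blue), other transcripts over 10 kb (dark grey) and the 10 giant mRNAs (red). The giant mRNAs lie between -1.87 and -0.92 over spans from 41.1 to 262 kb. A total of 5 points lie outside the axes.

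The start regions of AHNAK2 and KMT2D, the 2 most compact genes, are shown because they share a short span and a low day-7 ratio but no exon structure. They are the 250 bases before the RefSeq start (GRCh38.p14, both on the minus strand and printed in gene sense), in lower case, with the motif GGGCGG, known as a GC box, or its reverse complement CCGCCC in capitals.
AHNAK2, chr14:104978375-104978624: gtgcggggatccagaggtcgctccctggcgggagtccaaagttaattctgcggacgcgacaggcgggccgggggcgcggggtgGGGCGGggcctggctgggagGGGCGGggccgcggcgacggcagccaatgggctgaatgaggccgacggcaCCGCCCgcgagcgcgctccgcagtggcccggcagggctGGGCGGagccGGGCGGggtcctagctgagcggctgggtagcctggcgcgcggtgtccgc
KMT2D, chr12:49060795-49061044: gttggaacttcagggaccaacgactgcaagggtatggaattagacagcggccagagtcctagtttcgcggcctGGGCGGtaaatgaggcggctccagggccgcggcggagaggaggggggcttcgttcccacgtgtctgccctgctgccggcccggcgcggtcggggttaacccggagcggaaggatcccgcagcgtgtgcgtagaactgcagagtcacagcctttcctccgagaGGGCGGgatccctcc
AHNAK2 has 5 such motifs and 77.2% GC, and KMT2D has 2 and 65.6%. Of the 10 genes, 8 were in the RefSeq table and PLEC and PRKDC were not. AHNAK and DYNC1H1 have 4 each, BIRC6 and HERC1 2 each, HUWE1 1 and MDN1 none. Over 27305 promoters 42.3% hold at least 1 and 4.20% hold 5 or more, with a median GC of 58.0%. The letters TATAAA were in none of the 8 and in 7.17% of all promoters, and CCAAT on either strand was in AHNAK2 and HUWE1 and in 33.0% of all. The RefSeq start of AHNAK lies 980 bases from that of the canonical transcript. A match is a description of these letters and no evidence of binding.

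The genes whose products work with the giant proteins mostly have ordinary mRNAs, and they were described from lists of known partners. No list carries a test, and each is set beside all genes on day 7, with CONV-TOPO and EE-TOPO in this order: medians of -0.25 and -0.23, 14.9% and 15.6% at least 2-fold lower and 3.89% and 5.06% at least 2-fold higher. Genes with a mean under 10 CPM are not counted, also where the untreated level alone was above it. AHNAK partners had a median of 0.25 with CONV-TOPO and 0.57 with EE-TOPO over 4 genes tested. S100A10 and ANXA2, whose proteins form the tetramer that AHNAK binds, were both higher: S100A10 (671 bases) was at 403 CPM untreated, 729 CPM with CONV-TOPO and 734 CPM with EE-TOPO on day 7. ANXA2 (1554 bases) was at 622, 944 and 1111 CPM. MYOF, a large ferlin of membrane repair (6860 bases), went with AHNAK, at 583, 228 and 195 CPM, and was the 1 gene of the list at least 2-fold lower. DYSF, another ferlin of like length (6775 bases, named after its values were seen), did not, at 20.5, 19.2 and 25.5 CPM.

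Plakins and hemidesmosome genes had a median of -0.37 and -0.42 over 10 genes, with 3 of 10 at least 2-fold lower under each regimen, beside 14.9% and 15.6% of all genes, and 1 at least 2-fold higher with EE-TOPO. DST, a plakin related to plectin (24709 bases), was at 119, 36.2 and 36.8 CPM in untreated, CONV-TOPO and EE-TOPO spheroids on day 7, and MACF1, another (24340 bases), at 238, 80.2 and 72.3 CPM. The third was ITGA6 (named after its values were seen), the integrin partner of ITGB4, with log2 ratios of -1.18 and -1.86. EPPK1, a plakin with a transcript of 16005 bases, was an exception among long mRNAs, at 54.8, 50.1 and 48.1 CPM. CD151, a tetraspanin of hemidesmosomes (1545 bases), was the highest of the list, at log2 0.88 and 1.05. Thus plectin's fellow plakins did not share 1 value.

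The dynein and dynactin list, 22 genes with a median transcript of 2383 bases, had a median of -0.13 and -0.08, and 1 was at least 2-fold lower and 1 higher with each regimen. DYNLRB1, a dynein light chain (662 bases), was the highest, at 124 CPM untreated, 250.3 CPM with CONV-TOPO and 256 CPM with EE-TOPO. DYNLT3, another light chain, was the lowest by the mean of both regimens, at -0.94 and -1.19, and DYNC1LI2, a light intermediate chain named after its values were seen, was lower with CONV-TOPO, at -1.08 and -0.80. The heavy chain DYNC1H1, at -1.17 and -1.75, lay below all 22 genes of the list under each regimen. The same held for MDN1: the 12 genes of large-subunit maturation had a median of 0.03 and 0.10, with none at least 2-fold lower, from WDR12 (-0.66 and -0.80) to WDR18 (1.12 and 1.06), both of which encode assembly factors. DYNC1H1 and MDN1 were chosen on these day-7 ratios and have longer mRNAs than the listed genes, so nothing is read from their place. The end-joining list had a median of -0.17 and -0.21 over 7 genes, with none at least 2-fold lower under CONV-TOPO and 1 under EE-TOPO. XRCC5 and XRCC6, which encode the Ku dimer that loads the PRKDC product, were at log2 -0.44 and -0.49 and at -0.17 and -0.21. PAXX (808 bases) was the highest of that list at 1.10 and 1.28 and DCLRE1C, the nuclease Artemis, the lowest of those counted at -0.95 and -1.47. LIG4, the ligase of this pathway (named after its values were seen), was at 13.8 CPM untreated, 4.32 CPM with CONV-TOPO and 2.93 CPM with EE-TOPO, so that its mean was under 10 CPM and it was not counted.

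The KMT2 methyltransferase complexes had a median of -0.61 and -0.41 over 15 genes, with 3 of 15 at least 2-fold lower with CONV-TOPO and 5 of 15 with EE-TOPO, beside 14.9% and 15.6% of all genes. KMT2A (16600 bases) was at 137 CPM untreated, 43.3 CPM with CONV-TOPO and 30.5 CPM with EE-TOPO on day 7, and was the lowest of the list. KMT2C, the closest relative of KMT2D (16860 bases), was at 55.1, 33.6 and 22.4 CPM, and KMT2B (8485 bases) at 64.4, 30.4 and 33.0 CPM. WDR5, a shared core subunit (3157 bases), was at log2 0.30 and 0.10. Ubiquitin ligases and inhibitors of apoptosis had a median of -0.86 and -0.90 over 27 genes, with 8 and 9 of them at least 2-fold lower, beside 14.9% and 15.6% of all genes. HERC2, the giant relative of HERC1 (15364 bases), was at 152, 43.0 and 35.6 CPM, and UBR4 (15892 bases) at 269, 101 and 84.8 CPM. HERC6 (3776 bases), a small member of the same family, was higher than untreated day 7, at log2 0.80 and 0.77. Its levels of 43.9 and 42.9 CPM with drug were near untreated day 3, at 43.0 CPM, after 10.1 CPM on untreated day 0. The small HERC4 (4424 bases, named after its values were seen) was lower, at -1.08 and -0.87. Of the inhibitors of apoptosis with shorter mRNAs, log2 ratios were -0.86 and -0.69 for BIRC2, -0.59 and 0.14 for BIRC3 and -0.81 and -0.57 for XIAP, and 0.14 and -0.05 for BIRC5 (2574 bases, named after its values were seen), beside -1.35 and -1.87 for BIRC6.

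A further list named other giant mRNAs with no regard to function, and it shares genes such as DST, KMT2A and HERC2 with the lists above. It was named by hand with earlier results of these data known, so nothing is read from its counts. ANKRD11 (9301 bases) and SRRM2 (9044 bases) in it are under 10 kb. All that were tested were lower on day 7, 34 with CONV-TOPO and 33 with EE-TOPO, at medians of -1.53 and -1.69. At least 2-fold lower were 31 and 32, beside 14.9% and 15.6% of all genes. Among the transcripts over 10 kb outside the 10 genes, 53.5% and 55.9% were. TTN, which encodes titin, the largest known human protein, was lowest, at 44.6 CPM untreated, 8.39 CPM with CONV-TOPO and 4.59 CPM with EE-TOPO. MUC16 was the closest to untreated, at log2 -0.08 and -0.11. On day 3 the list had medians of 0.35 and 0.68.

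**Figure D5:**
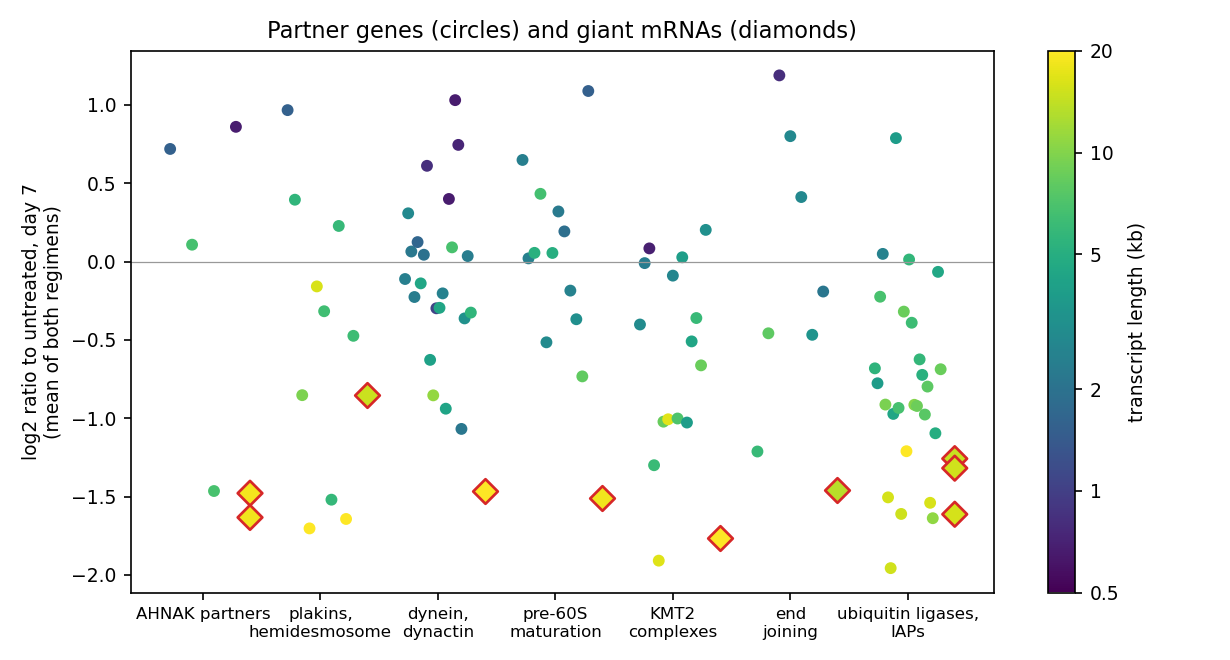
Log2 ratio to untreated on day 7, as the mean of both regimens, for the partner genes of each giant mRNA (circles) and for the giant mRNAs themselves (diamonds, red edge), coloured by transcript length (kb). In the dynein and ribosome maturation lists the diamond lies below every circle, LIG4 of the end-joining list is not drawn because its mean was under 10 CPM, and long transcripts such as KMT2A and HERC2 lie among or below the diamonds. The diamonds are genes chosen on these day-7 ratios, so their place is a description.

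By the pattern over all 7 libraries, the genes nearest to AHNAK2 were found by the Euclidean distance of log2(CPM + 1), centred on untreated day 0, among 9984 genes with at least 10 CPM on average. Among the nearest were MIB1 at a distance of 0.064 (a ubiquitin ligase of Notch ligand uptake, 10100 bases), EIF4G3 at 0.165 (a translation initiation factor, 6397 bases), SON at 0.251 (a splicing cofactor, 8393 bases) and ZNF37A at 0.252 (a zinc finger protein, 8119 bases). MIB1 had 107, 108 and 135 CPM untreated, 135 and 50.02 CPM under CONV-TOPO, and 145 and 39.8 CPM under EE-TOPO. The other giant mRNAs ranked from 24 (BIRC6) to 2227 (PRKDC) in nearness to AHNAK2, and its paralogue AHNAK ranked 416. The distance includes the day-7 libraries whose values chose the 10 genes, so their ranks are a description.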

How the data were processed

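RNA of PC-3 spheroids was sequenced by the authors as paired-end reads of 150 bases, mapped to hg38 with STAR, counted per gene and normalised. The authors deposited 1 table of CPM (counts per 1000000 reads) for 18144 genes in 7 libraries of a 10-sample experiment; the other 3 samples, of day 1, were not analysed here. The labels name Partek and hg38. An offset of 0.0001 CPM was subtracted. Reads per library were estimated from the steps of low values, of which 88.2% to 89.4% were whole within 0.02 reads, so no test for counts was run.

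The genes, gene lists and partner lists were chosen with earlier results of these data known, and the day-7 ratios chose the genes. Symbols gave the members. Lengths, exons and GC content came from the canonical transcript of GENCODE 44 (17108 of the listed genes) and promoters from RefSeq; spans are as deposited. Ratios of CPM compared libraries of 1 day with exact 95% intervals of the estimated reads. CONV-TOPO and EE-TOPO were compared by limma (3.58.1, R 4.3.3) in a model of treatment and day, on log2 of TMM-scaled CPM plus 1, keeping genes that reached 0.529 CPM (10 reads in a library of median depth) in 2 or more libraries. Beside the members, the genes named were the highest and the lowest of each list on day 7, close relatives of the members and the 5 genes nearest to AHNAK2; some genes under this rule and some marker genes are not reported here. Scaling and fit were tested on simulated data. Alternatives covered scaling, baseline, pseudocount, filter, day term, libraries, variance trend and transcript choice. Splits by coding length, GC content and level were added after seeing the data. Software was scipy 1.17.1, pandas 2.3.3, matplotlib 3.10.9 and numpy 2.4.6 under Python 3.11.15.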

Additional observations from a re-analysis of the deposited data

Results flagged for a closer look

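With both regimens, 9 of the 10 giant mRNAs were above the same-day untreated library on day 3 and below it on day 7, as were 28.7% of all genes (2772 of 9643). The change from day 3 to day 7 in the log2 ratio, as the mean of both regimens, was -2.11 for AHNAK, -2.06 for AHNAK2 and -1.16 for PLEC. It was -1.80 for DYNC1H1, -1.81 for MDN1 and -2.54 for KMT2D, and -1.57 for HUWE1, -2.38 for BIRC6 and -1.97 for HERC1. KMT2D and BIRC6 thus turned most and PLEC least. PRKDC, already below untreated on day 3 with CONV-TOPO, was not among them. The difference between days was not tested, since each treatment and day has 1 library, both regimens share the untreated library, and the day-7 values chose the genes. The untreated baseline differed between the days as well. All 10 genes were higher in untreated day 7 than in untreated day 3, by a median log2 ratio of 0.42, and its part in the turn was not tested.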

How the results depend on the processing

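No paired analysis was possible because each group has 1 library, so replicate numbers pair nothing; the day term of the fit already compares the regimens within days. The limits of these data are that ratios to untreated rest on single libraries, that counting error is the only error known for them, that day-7 values chose the genes, and that strand was not given for the counting. Of 140 alternatives for single genes on day 7, 69 moved the value beyond its counting interval and none changed its sign, which the choice of low genes favours. On either day, the filter and pseudocount settings among the alternatives could not change a sign, and only scaling and baseline could. On day 3, 53 of 140 moved and 9 changed sign, all with another untreated baseline (AHNAK, DYNC1H1, MDN1 and HUWE1 with CONV-TOPO, and DYNC1H1 and PRKDC with EE-TOPO). Members at least 2-fold lower on day 7 numbered 7 with TMM, 6 with median-of-ratios size factors and 8 with either other baseline under CONV-TOPO, and 9 throughout under EE-TOPO. The call of KMT2D on day 3 went from 1 to 0 with TMM, median-of-ratios, untreated day 0 and the mean of the untreated libraries.

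Over all genes, the counts at least 2-fold lower on day 7 were 1469 with CONV-TOPO and 1550 with EE-TOPO. They were 806 and 967 with TMM, 724 and 890 with median-of-ratios, 788 and 945 against untreated day 0, and 2529 and 2520 with a minimum of 1 CPM. The counts at least 2-fold higher were 384 and 501, and 855 and 943 with TMM, 937 and 1020 with median-of-ratios, 242 and 330 against the mean of the untreated libraries, and 638 and 865 with 1 CPM. On day 3 with CONV-TOPO, 46 genes were higher and 24 lower. The higher count was 316 against untreated day 0, 289 with 1 CPM and 110 with no filter, and the lower count was 9 against the mean baseline, 117 with 1 CPM and 52 with no filter. With EE-TOPO, 148 were higher, and 442, 483 and 260 under those same settings, and 41 were lower, with 24 against the mean baseline and 118 with 1 CPM. For transcripts over 10 kb, the medians on day 3 were 0.18 and 0.37 with TMM and 0.21 and 0.42 by the longest transcript, and on day 7 -0.81 and -0.90, and -1.04 and -1.08. The cause of these changes was not tested, apart from filters that admit more low genes.

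Between regimens, limma called 0 genes in all settings but that of the 4 treated libraries, which called 71. Leaving out day 3 left a difference on day 7 with no test, from -0.60 to -0.036 over the 10 genes (10 lower), and leaving out day 7 one from -0.059 to 0.48 (9 higher). Without day 3 the values were -0.38 for AHNAK, -0.24 for KMT2D, -0.31 for PRKDC, -0.23 for HUWE1 and -0.036 for HERC1, all opposite in sign to the fit, and -0.36 for AHNAK2, -0.48 for MDN1 and -0.53 for BIRC6. Without day 7 they were 0.077 for AHNAK2, 0.17 for DYNC1H1, 0.25 for MDN1 and 0.23 for BIRC6, all opposite in sign, and 0.42 for AHNAK, 0.33 for PRKDC, 0.27 for HUWE1 and 0.46 for HERC1.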

Other observations

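Outside the 10 genes, the transcripts over 10 kb that were lowest on day 7, as the mean of both regimens, were CRYBG3, ZBED6, NEAT1, TTN and DNHD1. CRYBG3, which encodes a protein with crystallin-type domains, was at 56.8 CPM untreated, 3.17 CPM with CONV-TOPO and 2.04 CPM with EE-TOPO. ZBED6, a gene derived from a DNA transposon, was at 28.5, 2.61 and 0.932 CPM. Its deposited span of 3550 bases is shorter than its canonical transcript of 11697 bases, so the annotation behind the deposited table differs there from the one used for lengths. NEAT1, the long noncoding RNA at the core of paraspeckles, was at 780.03 CPM untreated on day 7, 89.9 CPM with CONV-TOPO and 96.6 CPM with EE-TOPO. Its untreated level was only 204 CPM on day 0 and 316 CPM on day 3, so the day-7 baseline was itself high. On day 3 NEAT1 was above untreated, at log2 1.17 and 0.69. These were picked as the extremes of their class and have no test.

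Some long transcripts stood above untreated on day 7. MUC3A, a membrane mucin, was at 17.4 CPM untreated, 25.1 CPM with CONV-TOPO and 31.9 CPM with EE-TOPO. EPN1, which encodes the endocytic adaptor epsin, was at 472, 747 and 745 CPM, the most abundant of the 5 highest. Its canonical transcript of 16219 bases has a coding part of only 1728 bases. ZNF805, AP1M1 and ZNF264 followed, at mean log2 ratios of 0.53, 0.46 and 0.34. Their coding parts are short as well, at 1881, 1269 and 1881 bases. Lengths are those of canonical transcripts, and which isoforms these cells made was not examined.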
